A study of Mus musculus with 12 samples.

Results

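Extracellular adenosine is made, removed and sensed by a short chain of proteins. Genes grouped with that chain, 5 in number, were followed here in mouse lymphoma tumors: Entpd1, Nt5e, Ada, Dpp4 and Adora2a. They were chosen by symbol from the 770 genes of a mouse nCounter panel for cancer immunology, an assay that counts barcoded probes without amplification, and each of the 5 was measured once per tumor. The tumors were A20, a mouse B-cell lymphoma line, grown under the skin of female Balb/c mice. Mice were 7 to 8 weeks old, and treatment began about 7 days after implantation. Of 12 tumors, 4 received PBS, 4 the stable emulsion SE alone and 4 GLA-SE, which is 10 µg of the TLR4 agonist GLA in 50 µl of 2% SE. Each tumor was injected 3 times, every other day, and collected 2 h after the last injection. All groups carry the same implanted line, whole tumors were measured, and the labels name no genetic change in any group.

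Entpd1 encodes CD39, which splits extracellular ATP and ADP to AMP, and Nt5e encodes CD73, which turns AMP into adenosine. Ada encodes adenosine deaminase, which converts adenosine to inosine, and Dpp4 encodes CD26, a surface peptidase that also anchors adenosine deaminase on human cells, a binding that the mouse enzyme is known to lack. Adora2a encodes an adenosine receptor that couples to Gs, raises cAMP and restrains T cells and myeloid cells, and the chain is best known in tumors for that restraint.

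Promoters of 4 of the 5 genes were matched in RefSeq (GRCm38.p6), each 300 bases from 250 before to 50 after a start site, and 5 promoters resulted because Entpd1 had more than 1 start. That of Adora2a was not matched. The promoters of Nt5e and Ada are shown because these genes lay on opposite sides of the PBS tumors in the SE tumors. Nt5e lies at chr9:88327359-88327658 on the plus strand, and Ada at chr2:163750190-163750489 on the minus strand. Capitals mark GC boxes (GGGCGG or its complement CCGCCC) and, in Ada, a GAS motif (TTCNNNGAA).
Nt5e: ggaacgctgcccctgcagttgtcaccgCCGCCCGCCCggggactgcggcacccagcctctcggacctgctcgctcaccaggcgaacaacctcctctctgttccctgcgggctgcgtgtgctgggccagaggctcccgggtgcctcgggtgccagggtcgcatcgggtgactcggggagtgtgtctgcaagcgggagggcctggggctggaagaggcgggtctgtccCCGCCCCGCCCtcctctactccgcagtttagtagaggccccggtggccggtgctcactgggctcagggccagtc
Ada: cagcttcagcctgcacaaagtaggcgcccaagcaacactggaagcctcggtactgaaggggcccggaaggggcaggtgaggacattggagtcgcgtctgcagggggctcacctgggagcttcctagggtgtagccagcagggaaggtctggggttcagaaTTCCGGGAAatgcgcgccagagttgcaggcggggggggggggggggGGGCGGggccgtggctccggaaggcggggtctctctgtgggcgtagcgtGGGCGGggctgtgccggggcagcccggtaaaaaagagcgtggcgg
The Nt5e window held 4 GC box matches, which overlap in pairs, and the Ada window held 2. GC boxes occurred in 35.7% of the 32851 RefSeq promoters of this length, GAS motifs in 8.30%. The GAS motif of Ada, a sequence that STAT proteins can bind, began 90 bases before the start site. GC content was 71.0% for Nt5e and 68.0% for Ada, against a median of 52.7%. Dpp4 (chr2:62412182-62412481, minus strand, 45.3% GC) held none of the motifs searched on both strands. The Entpd1 windows (chr19:40612116-40612415 and chr19:40659520-40659819, plus strand) each held 1 CRE half-site (TGACG), present in 20.8% of promoters, and no GC box. None of the 5 windows held the NF-kB consensus (4.51% of promoters), AP-1 (TGANTCA, 7.81%), the full CRE (TGACGTCA, 1.79%, whose matches also contain a half-site) or the HIF core (ACGTG, 19.6%). These letters come from the reference genome rather than from the Balb/c mice, and a match is a description of the window.

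Total counts ranged from 810260 to 1612415 per tumor. Each tumor was scaled to 16 of the 20 reference genes of the panel, with a geometric mean of 1972 to 2558 counts (PBS) or 1693 to 1932 counts (GLA-SE). SE replicate 4 stood apart with 927 counts, against 1501 to 2806 in the other SE tumors, so values of the SE group are also given without it. The lowest deposited count of any of the 5 genes was 24, for Adora2a, with a 95% Poisson interval of 15.4 to 35.7 that covers counting error only. Groups were compared over the other 750 genes by the quasi-likelihood test of edgeR, and adjusted p values are Benjamini-Hochberg values over all of them. Values are normalized counts, and levels of different genes are not compared because probes differ in efficiency. In whole tumors, a change in the number of cells of a type and a change in RNA per cell cannot be told apart.

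Relative to the reference genes, Entpd1, Nt5e, Dpp4 and Adora2a were higher in the GLA-SE than in the PBS tumors, by 2.35-fold to 3.47-fold, and Ada was not called. Relative to the panel median, Nt5e turned to a log2 fold change of -0.14 and only Ada was called, as lower. In the SE tumors no member was called against PBS, although every SE tumor lay above every PBS tumor for Nt5e and below every PBS tumor for Ada. The GLA-SE and SE tumors were not separated for any member. So 4 of 5 members were called higher in GLA-SE against PBS, on a panel where 68.8% of the tested genes were called and 68.4% were called higher. The share among the members was close to that background. The median log2 fold change was 1.46 over the members and 0.90 over all genes tested.

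**Figure D1:**
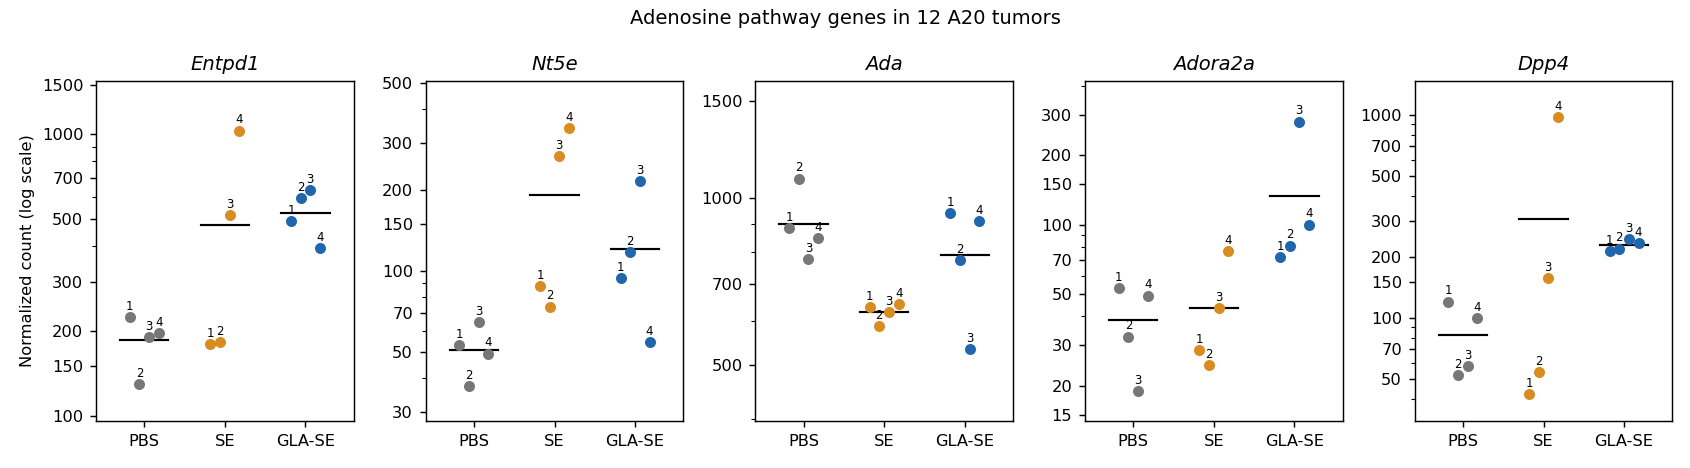
Normalized counts (log scale) of each gene in the PBS, SE and GLA-SE tumors, 1 point per tumor numbered by replicate, with lines at the group means. Dpp4 ranged from 214 to 244 in the GLA-SE tumors and from 42.0 to 978 in the SE tumors, and Ada ranged from 589 to 646 in the SE tumors.

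For Entpd1, which starts the chain, the 4 PBS tumors had normalized counts of 225, 130, 191 and 197. The GLA-SE tumors had 491, 593, 632 and 394, and the SE tumors 181, 183, 516 and 1029. Every GLA-SE tumor was above every PBS tumor, whereas SE replicates 1 and 2 lay among the PBS tumors and SE replicates 3 and 4 far above them. Entpd1 rose 2.84-fold in GLA-SE against PBS (log2 fold change 1.51, standard error 0.22, edgeR adjusted p = 0.000633, exact permutation p = 0.0286). Against PBS, the SE group gave a log2 fold change of 1.36 with a 95% interval of 0.03 to 2.69 (edgeR adjusted p = 0.256), and 0.66 without SE replicate 4. The group means were 186 ± 40.0 in PBS, 477 ± 400 in SE and 527 ± 107 in GLA-SE (SD, n = 4). The neighbouring SE and GLA-SE levels were not separated, with an interval of -1.15 to 1.44 on the log2 scale for their difference (log2 difference 0.15, edgeR adjusted p = 0.934), and the difference was 0.85 without SE replicate 4 (edgeR adjusted p = 0.180).

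For Nt5e, the enzyme that yields adenosine, the PBS tumors had 53.1, 37.4, 64.3 and 49.3 normalized counts. The GLA-SE tumors had 93.9, 118, 215 and 54.2, and the SE tumors 87.9, 73.6, 267 and 339. All SE tumors exceeded all PBS tumors, while GLA-SE replicate 4 lay within the PBS range. Nt5e was called higher in GLA-SE against PBS at a log2 fold change of 1.23 (standard error 0.40, edgeR adjusted p = 0.0233), although the exact permutation test gave p = 0.0571. That call was lost without PBS replicate 2 (edgeR adjusted p = 0.0609), without PBS replicate 4 (0.0544), without rescaling (0.0848) and with all 12 tumors in one fit (0.0945). In SE against PBS the log2 fold change was 1.90 (95% interval 0.63 to 3.18), with an exact permutation p of 0.0286 and an edgeR adjusted p of 0.256. It was 1.48 without SE replicate 4. The separation of the SE from the PBS tumors was lost without rescaling of the counts, for Nt5e and for Ada alike. By mean level, the order was PBS (51.0 ± 11.1), GLA-SE (120 ± 68.6) and SE (192 ± 132; SD, n = 4). The last 2 were not separated, with a log2 difference of GLA-SE against SE of -0.67 and an interval of -2.13 to 0.79 (edgeR adjusted p = 0.671), and of -0.24 without SE replicate 4.

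Ada, which removes adenosine, varied least among the 5, by 2.03-fold over the 12 tumors. The PBS tumors had 883, 1086, 778 and 848 normalized counts, and the SE tumors 637, 589, 623 and 646. The GLA-SE tumors had 940, 773, 535 and 910. The SE tumors lay closely together below the lowest PBS tumor, and GLA-SE replicate 3 was the lowest of all 12. Against PBS, Ada had a log2 fold change of -0.53 in the SE tumors (95% interval -0.86 to -0.20, exact permutation p = 0.0286, edgeR adjusted p = 0.256), and of -0.54 without SE replicate 4. In GLA-SE against PBS it was -0.19, with an interval of -0.62 to 0.25 (edgeR adjusted p = 0.399). The means were 623 ± 24.9 in SE, 790 ± 184 in GLA-SE and 899 ± 132 in PBS (SD, n = 4). Neither GLA-SE and PBS nor GLA-SE and SE were separated, the latter with a log2 difference of 0.34 and an interval of -0.15 to 0.84 (edgeR adjusted p = 0.466), and 0.36 without SE replicate 4.

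For Dpp4, the surface peptidase, the PBS tumors had 120, 52.3, 57.7 and 100 normalized counts. The GLA-SE tumors had 214, 220, 244 and 234, and the SE tumors 42.0, 54.2, 157 and 978. The GLA-SE tumors were all above the PBS tumors and differed little from each other, with a mean of 228 ± 13.7 against 82.6 ± 33.0 in PBS (SD, n = 4). Dpp4 rose 2.76-fold in GLA-SE against PBS (log2 fold change 1.46, standard error 0.28, edgeR adjusted p = 0.00247, exact permutation p = 0.0286). With all 12 tumors in one fit it was not called (edgeR adjusted p = 0.173). The SE mean of 308 ± 450 rested on replicate 4, and it was 84.4 ± 63.2 (n = 3) without that tumor. The log2 fold change of SE against PBS accordingly went from 1.89 (edgeR adjusted p = 0.270) to 0.02, and that of GLA-SE against SE from -0.43 (edgeR adjusted p = 0.888) to 1.44 (edgeR adjusted p = 0.0860).

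For the receptor gene Adora2a, the PBS tumors had 53.1, 32.7, 19.0 and 49.3 normalized counts. The SE tumors had 28.6, 24.5, 43.6 and 76.7, and the GLA-SE tumors 72.6, 81.2, 280 and 100. Every GLA-SE tumor exceeded every PBS tumor, SE and PBS tumors overlapped, and SE replicate 4 lay above GLA-SE replicate 1. Adora2a rose 3.47-fold in GLA-SE against PBS (log2 fold change 1.79, standard error 0.52, edgeR adjusted p = 0.0138, exact permutation p = 0.0286). Without GLA-SE replicate 3 the log2 fold change was 1.14 (edgeR adjusted p = 0.0187), and the call was lost with the replicate number as a block (edgeR adjusted p = 0.0583). The PBS and SE means, 38.5 ± 15.7 and 43.4 ± 23.7, were not separated, with a log2 difference of 0.15 and an interval of -0.96 to 1.26 (edgeR adjusted p = 0.826), and of -0.26 without SE replicate 4. The GLA-SE mean was 134 ± 98.6 (SD, n = 4), and 84.6 ± 14.1 (n = 3) without replicate 3. In GLA-SE against SE the log2 difference was 1.64 with an interval of 0.26 to 3.01, which did not pass the threshold over all genes (edgeR adjusted p = 0.197, exact permutation p = 0.0571). It was 0.98 with an interval of -0.12 to 2.08 without GLA-SE replicate 3 (edgeR adjusted p = 0.482), and 2.05 without SE replicate 4 (edgeR adjusted p = 0.0609). GLA-SE replicate 3 was also highest in its group for the summed markers of neutrophils (8985 normalized counts, against 790 to 2128), dendritic cells (5324, against 1462 to 1794) and monocytes and macrophages (135014, against 92742 to 99417). The same tumor was highest for regulatory T cells (1496, against 663 to 1096) and T cells (3093, against 2230 to 3045). By these sums it was not highest for B cells, NK cells or endothelium and fibroblasts. By the mean log2 level of the markers, which weighs them equally, 2 of these rankings changed. GLA-SE replicate 3 was then highest in its group for B cells (10.10, against 9.79 to 9.97). GLA-SE replicate 4 was then highest for T cells (8.44, against 8.38 in GLA-SE replicate 3). The neutrophil sum rested largely on S100a8, which alone reached 7805 normalized counts in the GLA-SE tumors. The part of any of these cell types in the Adora2a value was not tested.

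**Figure D2:**
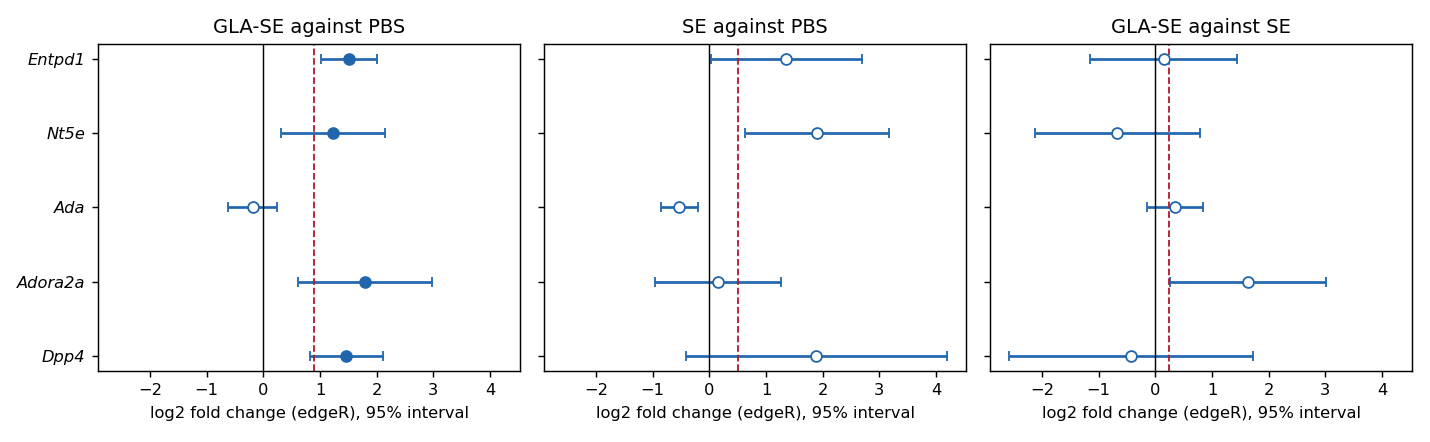
log2 fold changes from edgeR with 95% intervals for the 5 genes in the 3 comparisons, where filled points passed an adjusted p of 0.05 and the dashed line is the median of all 750 genes tested. The filled points all belong to GLA-SE against PBS, and Ada lies below the dashed line there, at -0.19 against 0.90.

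In SE against PBS, edgeR called 0 of 5 members and 0.0% of the panel, and 3 members (Entpd1, Nt5e and Ada) had an unadjusted p under 0.05, as did 134 of 750 genes. DESeq2 called Ada (adjusted p = 0.00393) and Nt5e (adjusted p = 0.0199) among 38 genes, and limma called 0. In GLA-SE against SE, edgeR called 0 members and 2.13% of the panel, with Adora2a at an unadjusted p under 0.05, as were 139 genes. DESeq2 called Adora2a in that comparison (adjusted p = 0.0388) among 106 genes and gave Dpp4 no p value, and limma called no member among 18 genes.

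Every tumor of one group lay above every tumor of the other for 3 of 5 members in GLA-SE against PBS (Entpd1, Dpp4 and Adora2a), as for 63.7% of the panel, and below for no member, as for 1.07% of the panel. In SE against PBS this held for Nt5e above, with 8.0% of the panel, and for Ada below, with 1.2%. In GLA-SE against SE it held for no member, where 14.7% of the panel lay above and 0.133% below. The 70 assignments of 4 tumors against 4 allow no exact p under 0.0286.

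Because most panel genes were higher in GLA-SE tumors relative to the reference genes, the scaling set the size and, for some genes, the direction of these changes. With the panel median as the scale, the median of all genes moved from 0.90 to -0.40, and calls went from 513 higher and 3 lower to 61 higher and 307 lower. Ada was then called lower (log2 fold change -1.44, edgeR adjusted p = 0.00262), Nt5e was at -0.14, and Entpd1, Dpp4 and Adora2a, at 0.22, 0.23 and 0.44, were not called. With TMM, which left 189 higher and 143 lower, Ada was called lower at -0.94 (edgeR adjusted p = 0.0194), Entpd1 (0.71) and Dpp4 (0.70) were called higher, and Adora2a (0.93, edgeR adjusted p = 0.0937) and Nt5e (0.37) were not called.

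**Figure D3:**
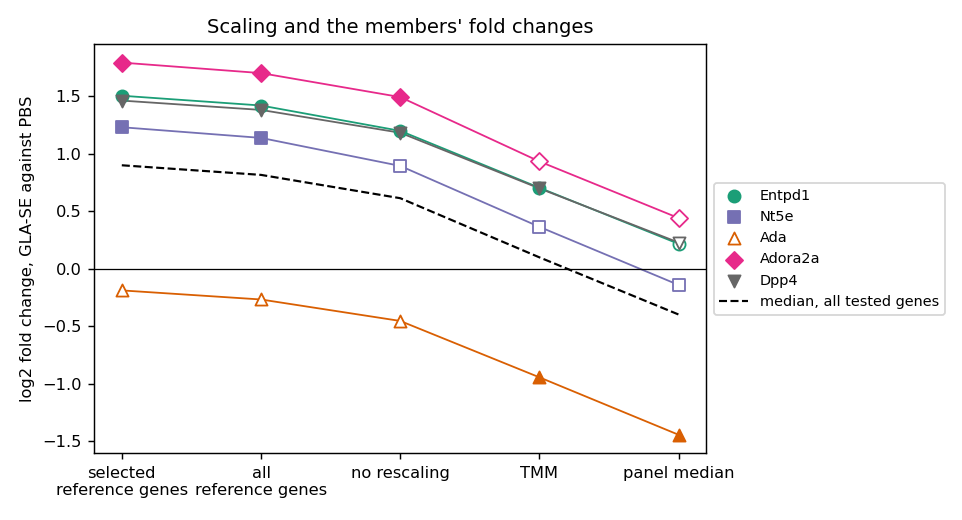
log2 fold changes of the 5 genes in GLA-SE against PBS under 5 scalings, where filled symbols passed an edgeR adjusted p of 0.05 and the dashed line is the median of all genes tested. The lines move down together from the selected reference genes to the panel median, since a change of scale shifts all genes of a comparison by nearly the same amount.

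Ratios of 2 genes within a tumor do not depend on the scaling. Of 10 ratios in 3 comparisons, 6 of 30 showed no overlap between the groups, and after Benjamini-Hochberg adjustment over the 30 none passed 0.05 (each of the 6 had an exact permutation p of 0.0286 and an adjusted p of 0.143). Among all ratios of 2 tested genes, 35.3% did not overlap in GLA-SE against PBS, 5.8% in SE against PBS and 13.3% in GLA-SE against SE. In GLA-SE against PBS, Entpd1 relative to Ada was 3.29-fold and Adora2a relative to Ada 3.62-fold, and the ratio of Ada to Dpp4 was 0.297-fold. In SE against PBS, Entpd1 relative to Ada was 2.86-fold and Nt5e relative to Ada 4.40-fold. The one separated ratio without Ada was Adora2a to Nt5e, 4.14-fold in GLA-SE against SE. Without SE replicate 4 the 3 separated ratios that involve the SE tumors were 2.05-fold, 3.44-fold and 3.99-fold in the same order, again without overlap. Other ratios separated only then, and 3 tumors separate from 4 more easily than 4 do. In SE against PBS these were Entpd1 to Nt5e (0.595-fold) and Nt5e to Dpp4 (2.59-fold). In GLA-SE against SE they were Adora2a to Ada (2.84-fold), Entpd1 to Nt5e (2.26-fold), Entpd1 to Dpp4 (0.633-fold) and Nt5e to Dpp4 (0.280-fold).

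**Figure D4:**
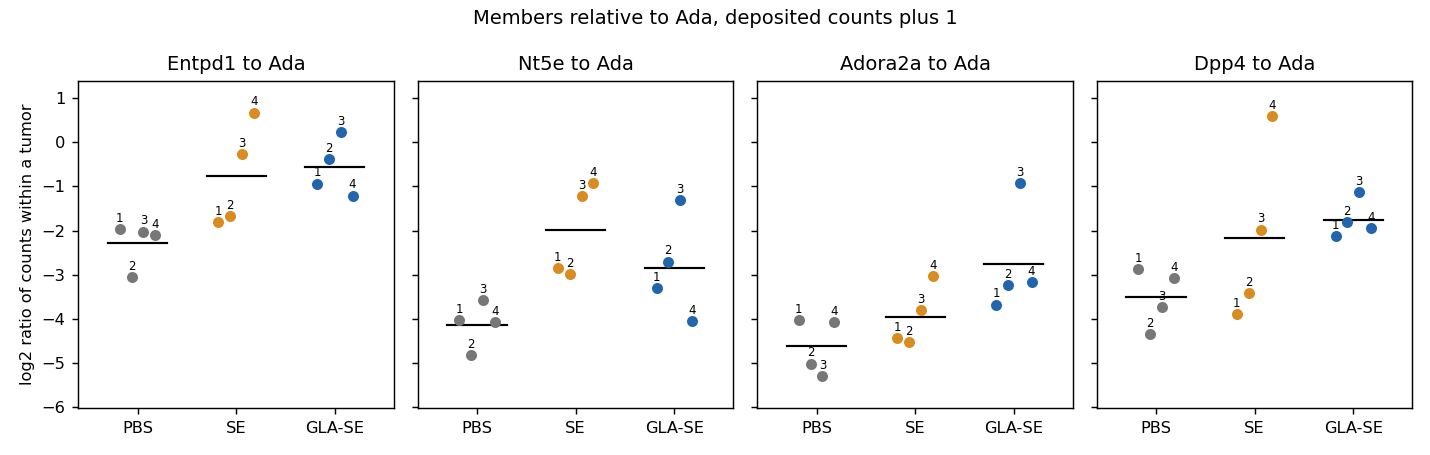
log2 ratio of each gene's deposited count plus 1 to that of Ada within a tumor, 1 numbered point per tumor with lines at the group means. The Entpd1 ratio of every SE and GLA-SE tumor lies above those of the PBS tumors, and the Nt5e ratio does so in the SE tumors.

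Marker lists of cell types were read from the same fits. In GLA-SE against PBS, 68.8% of the panel was called and its median log2 fold change was 0.90. All 11 monocyte and macrophage markers were called higher (median log2 fold change 1.61). So were all 9 of endothelium and fibroblasts (0.98) and all 3 of regulatory T cells (1.70). Those 3 were Foxp3 (1.33), Ctla4 (1.70) and Il2ra (2.27), and their RNA in whole tumors is not a count of regulatory T cells. By flow cytometry the paper reports a decrease of these cells among CD4 T cells after treatment. Shares called were under that of the panel for neutrophil markers (3 of 5 called higher, median 2.23) and T-cell markers (4 of 7, 0.86). The same held for dendritic cell markers (2 of 4, 0.60) and NK cell markers (1 of 3, 0.66). The T-cell count went from 0 (without PBS replicate 3 or GLA-SE replicate 4) to 6 (without PBS replicate 1) with 1 tumor left out, and was 2 without GLA-SE replicate 1 and 1 without GLA-SE replicate 3. That of endothelium and fibroblasts was 6 to 9. Of 9 B-cell markers, which include those of the A20 line, 2 were called lower and 0 higher. These counts also depended on the scale, since with the panel median 3 of 11 monocyte and macrophage, 1 of 9 endothelium and fibroblast, 0 of 7 T-cell and 9 of 9 B-cell markers were called in either direction. With all 12 tumors in one fit the numbers were 7, 0, 0 and 0. The lowest deposited count of any monocyte and macrophage marker was 33, of any T-cell marker 24 and of any B-cell marker 41, so none was at 0. Lower counts occurred among the neutrophil markers (lowest 4) and the NK cell markers (lowest 7). In most tumors 2 of 5 neutrophil markers and 1 of 3 NK cell markers were under 20 counts, so their shares called include genes near the floor. Summed monocyte and macrophage markers ranged from 32655 to 41295 normalized counts in PBS, 27856 to 120348 in SE and 92742 to 135014 in GLA-SE tumors. SE replicates 1 and 2, with Entpd1 and Dpp4 near the PBS level, had 27856 and 34322, and replicates 3 and 4 had 83327 and 120348. The endothelium and fibroblast sum was 119824 in SE replicate 4, against at most 9231 in PBS and 26549 in GLA-SE tumors. Such sums rest largely on the genes with the highest counts. Lyz2 alone had a mean of 29229 in PBS and 83722 in GLA-SE tumors, and Col3a1 alone reached 90245 in the SE tumors. The part of these cell types in the results was not tested.

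**Figure D5:**
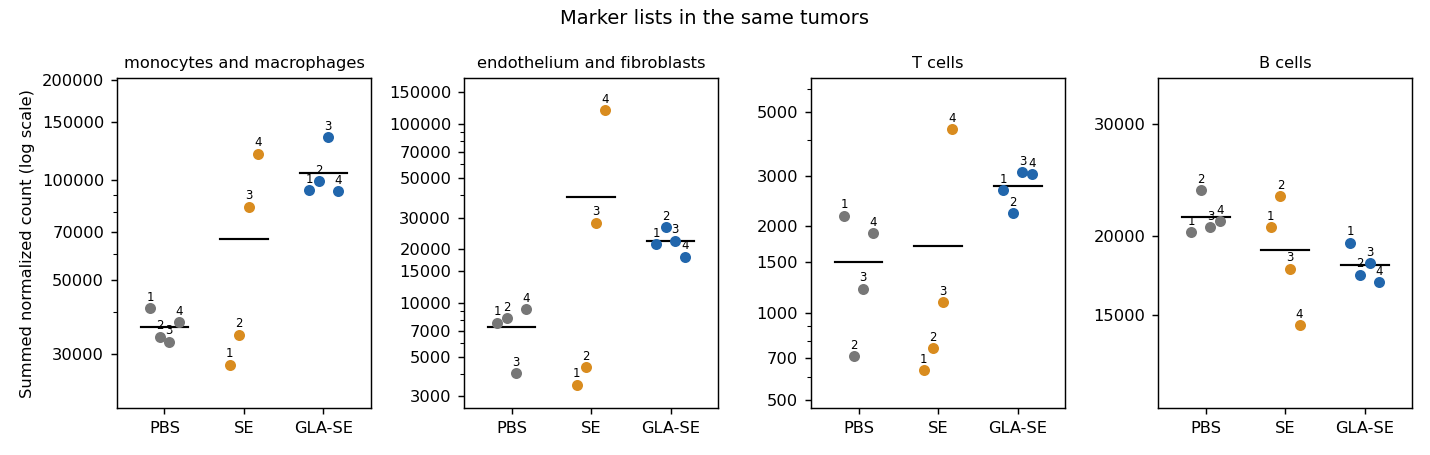
Summed normalized counts (log scale) of 4 marker lists in the PBS, SE and GLA-SE tumors, 1 numbered point per tumor with lines at the group means. SE replicate 4 is highest for the endothelium and fibroblast and the T-cell lists and lowest for the B-cell list.

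Set against the mean log2 level of the 11 monocyte and macrophage markers within each tumor, Entpd1 was at -1.72 ± 0.30 in PBS, -1.50 ± 0.27 in SE and -1.94 ± 0.25 in GLA-SE tumors (SD, n = 4), with -1.49 ± 0.33 in SE without replicate 4. The GLA-SE and PBS tumors overlapped on this scale for Entpd1, Nt5e, Dpp4 and Adora2a, with mean differences of -0.22, -0.65, -0.18 and -0.08. Ada was below, with a mean difference of -1.93 and no overlap. These 11 markers rose by a median log2 fold change of 1.61 in GLA-SE against PBS, and all genes tested by 0.90. Any gene that rises less than the markers lies lower on this scale. Nt5e relative to these markers was lower in every GLA-SE tumor than in every SE tumor, by a mean of 1.49 on the log2 scale, or 1.62 without SE replicate 4. Relative to the 3 regulatory T-cell markers, Adora2a differed by -0.12 between GLA-SE and PBS and by 0.03 between SE and PBS (0.05 without SE replicate 4). On that scale Entpd1 (-0.26), Dpp4 (-0.23) and Nt5e (-0.69) also overlapped between GLA-SE and PBS, and Ada (-1.98) was below with no overlap. Relative to the 9 B-cell markers, Ada differed by -0.20 between GLA-SE and PBS, with overlap, and by -0.44 between SE and PBS, with none (-0.52 without SE replicate 4, with none). These values were chosen after the levels were seen and have no test. The share of panel genes without overlap on these scales was not computed, so the separations have no background beside them.

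The genes most like each member over the 12 tumors were those whose log2 ratio to it varied least, among 669 genes with a mean count of at least 20. All ratios come from the same 12 tumors, and the SD includes differences between the groups, so it is a description. For Entpd1 they were Cd63 (SD 0.19), Cd84 (0.20) and Csf1r (0.20), against a median of 0.68 over all genes. For Nt5e they were Egr2 (0.38), Alcam (0.40) and Egr3 (0.47), against 0.89. For Ada they were Pou2f2 (0.24), Btk (0.26) and Nup107 (0.27), against 0.88. For Dpp4 they were C4b (0.32), Thy1 (0.36) and Cd163 (0.36), against 0.96, and for Adora2a Ctla4 (0.28), Tlr2 (0.32) and Tnfaip3 (0.35), against 0.83. Among the members, Entpd1 ranked 21st of 669 for Nt5e (SD 0.56) and 50th for Dpp4 (SD 0.54), and Ada ranked from 598th to 624th for the other 4. Without SE replicate 4 all 3 genes changed for Entpd1 (C1qa, Ctss and Csf1), while Ctla4 and Tlr2 remained for Adora2a, Pou2f2 and Btk for Ada, Egr2 and Alcam for Nt5e and Thy1 for Dpp4.

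Other genes near the chain were read from lists, whose counts in GLA-SE against PBS stand beside 68.8% of the panel called. Both NAD-consuming ectoenzymes on the panel, which feed another route to extracellular AMP, were called higher in GLA-SE against PBS, namely Cd38 with a log2 fold change of 2.87 and Bst1 with 2.05. Of 6 CREB family genes and coactivators, only some of which act below cAMP, 3 were called higher, namely Creb5 (1.13), Ep300 (0.45) and Crebbp (0.34). Creb1 (0.12), Atf1 (0.20) and Atf2 (0.23) were not called, and the list median of 0.29 lay under that of the panel. Of 3 hypoxia genes, Hif1a, which encodes an oxygen-regulated transcription factor, was called higher (1.26), and Vegfa (0.51) and Vhl (0.10) were not. All 7 chemokines that DPP4 is known to cleave were called higher, with a median of 2.05 and a range from 1.37 for Cxcl12 to 3.33 for Ccl5. Both other surface peptidases, Fap (1.19) and Mme (0.91), were called higher. In SE against PBS no gene of these lists was called by edgeR. In GLA-SE against SE, Cxcl9 (1.42), Cxcl10 (2.11) and Cxcl11 (2.27), ligands of CXCR3, were called higher on a panel with 2.13% called, while the chemokine list's other 4 genes and all genes of the other lists were not. The count of 3 in the chemokine list was 0 with the panel median, with TMM, with the replicate number as a block or without SE replicate 3, and 1 without GLA-SE replicate 2, GLA-SE replicate 4 or SE replicate 2.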

How the data were processed

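The counts deposited by the authors are whole numbers of barcoded probes per gene and tumor. The methods describe normalization in nSolver, but totals and reference genes differ between tumors, so the values were treated as not normalized, and the scaled values rest on that reading. No reads were aligned. The geNorm procedure kept 16 of 20 reference genes over the 12 tumors, and each tumor was scaled to their geometric mean. Pairs of groups were tested over the other 750 genes in edgeR 4.0.16 (R 4.3.3) without a filter, with Benjamini-Hochberg adjustment and a threshold of 0.05. Exact permutation tests, two-sided, used log2(normalized count + 1), and ratios used deposited counts plus 1. limma 3.58.1 (pseudocount 10) and DESeq2 1.42.0 were alternatives, as were other scalings, a filter of 20 counts in 4 tumors, all tumors in 1 fit, the replicate number as a block and leaving out each tumor. Ratios and marker-relative values without SE replicate 4 were added after seeing the data. Named genes were the 5 members, the lists of related genes and the 3 genes most like each member. Members and lists were chosen with earlier results of these data known. p-values set the difference between groups against the spread between tumors, with 4 tumors per group in the main fits. Those of edgeR, limma and DESeq2 also use variance estimates shared across genes.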

Additional observations from a re-analysis of the deposited data

Results flagged for a closer look

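In 45 groups of 4 tumors (the 5 genes and their 10 ratios in 3 groups), 5 held a tumor far from the others by Dixon's criterion, where chance flags about 1 in 20. GLA-SE replicate 3 had an Adora2a normalized count of 280, against 72.6 to 100 in the other GLA-SE tumors. SE replicate 4 had a Dpp4 normalized count of 978, against 42.0 to 157 in the other SE tumors. In PBS replicate 3 the log2 ratio of Adora2a to Entpd1 was -3.28, against -2.06 to -1.96 in the other PBS tumors, and that of Adora2a to Nt5e was -1.72, against -0.19 to 0.0. In PBS replicate 2 the log2 ratio of Entpd1 to Ada was -3.06, against -2.10 to -1.97.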

How the results depend on the processing

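Of 150 alternative fits of single genes, 124 kept direction and side of the threshold, and of 120 with 1 tumor left out, 113 did. Dpp4 with DESeq2 in GLA-SE against SE received no p value and was counted as not called. In GLA-SE against PBS 4 members were called. With the panel median 1 was, Ada as lower, and the other 4 were not. With all 12 tumors in one fit 2 were called, and with 1 tumor left out 3 to 4. In SE against PBS the count was 0, with DESeq2 2, and in GLA-SE against SE it was 0, with no rescaling 1 and with DESeq2 1. Both stayed at 0 with 1 tumor left out. Exact tests under 0.05 numbered 3, with the panel median 1, in GLA-SE against PBS, 2, with no rescaling 0, in SE against PBS, and 0 in GLA-SE against SE, with all reference genes 1, the panel median 2, TMM 1 and no rescaling 1. These tests were not run with a tumor left out, since 3 against 4 allows no p under 0.0571.

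The direction turned for Nt5e in GLA-SE against PBS (panel median -0.14), and for Adora2a in SE against PBS (panel median -0.44, TMM -0.30, no rescaling -0.35, and -0.26 to 0.35 with 1 tumor left out). In GLA-SE against SE it turned for Entpd1 (panel median -0.28, TMM -0.024, and -0.12 to 0.85 with 1 tumor left out), Ada (panel median -0.57, TMM -0.13) and Dpp4 (no rescaling 0.28, limma 0.63, and -0.79 to 1.44 with 1 tumor left out). The cause was not tested. Panel calls in GLA-SE against PBS were 516, with TMM 332 and with all tumors in one fit 255. In GLA-SE against SE they were 16, with the panel median 0, TMM 3, no rescaling 89, all tumors in one fit 79, DESeq2 106 and 4 to 105 with 1 tumor left out. Leaving out SE replicate 4 gave 105, SE replicate 1 gave 9, SE replicate 2 gave 7, and the count was 4 without each of GLA-SE replicate 2, GLA-SE replicate 4 and SE replicate 3.

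With the replicate number as a block, Dpp4 turned to 0.85 in GLA-SE against SE, Adora2a in GLA-SE against PBS had an adjusted p of 0.0583, and panel calls were 439, 0 and 0 in GLA-SE against PBS, SE against PBS and GLA-SE against SE. Deviations of same-numbered tumors correlated from -0.25 to 0.18, so the numbers were not taken to pair tumors. Precision is limited by 4 tumors per group.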
